A study of Mus musculus with 4 samples.

Results

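Small leucine-rich proteoglycans are secreted matrix proteins built of leucine-rich repeats, and most of them carry chains of chondroitin, dermatan or keratan sulfate. They bind collagen fibrils and set their diameter and spacing, and several of them also hold TGF-beta or act on cell surface receptors. In the gut wall they are made largely by fibroblasts, while smooth muscle cells make some of them. The family was read here from 10 genes of 20461 measured, namely Prelp, Dcn, Lum, Bgn, Fmod, Ogn, Aspn, Omd, Kera and Ecm2. They were chosen by their exact gene symbol in the deposited annotation of the arrays, which gave 22 of 45101 probe sets.

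Expression was measured in the muscularis of the small intestine of mice with Affymetrix GeneChip Mouse Genome arrays, with 2 WT and 2 smDicer KO arrays and 1 array per mouse. The labels name the tissue as jejunum and the age as 3 weeks, and the mucosa and submucosa had been stripped off. In the smDicer KO mice (smDicer-/-;Cre-GFP/+), a Cre recombinase and eGFP were expressed from the smooth muscle myosin heavy chain (Myh11) promoter. The Cre deleted the floxed Dicer gene, so that mature miRNAs were depleted in smooth muscle cells. The study still detected part of these miRNAs in sorted smDicer KO smooth muscle cells, most at lower levels. Cells that do not use the Myh11 promoter are not targeted by the Cre. The study gives the genotype of these mice as Dicer lox/Δ in its summary of mice and as Dicer lox/lox in its extended methods. Whether their other cells carry a deleted allele as well as a floxed one is therefore not settled here. The study's methods name the WT mice as smMHC Cre-GFP/+, which carry the same Cre-GFP allele, and as siblings of the transgenic mice, while the labels of the arrays say only wild type. The smDicer KO mice were female, and no sex was given for the WT controls. Nothing states a litter, day or scan that particular arrays shared.

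The comparison asked how the mRNA of each family member differed between smDicer KO and WT muscularis. Values are RMA log2 values, on which a difference of 1 is a doubling, and each difference is smDicer KO minus WT with its standard error from limma over 2 arrays against 2. Values under about 6 lie near background. By limma 0 of 45101 probe sets passed after adjustment. Before adjustment 7126 were under p 0.05, 4237 of them lower and 2889 higher in smDicer KO (59.5% lower). After cyclic loess these were 3284 lower and 3831 higher (46.2% lower). Every unadjusted p under 0.05 given here is therefore a description and no call. For a single gene the smallest p of an exact two-sided permutation test over these arrays is 0.33. Dicer1, the targeted gene, read 7.82 and 8.08 in WT and 7.52 and 7.36 in smDicer KO (-0.51 ± 0.16 SE, limma adjusted p = 0.271), and whether its probes lie in the deleted part was not determined.

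The smDicer KO arrays also differed from the WT arrays in markers of other cells. Of 16 markers of mucosal epithelium 16 were higher in smDicer KO, with a median difference of 4.75. The WT mean of 7 of them was under 6, which makes that median a lower limit. Their summed linear level was 2991 and 5899 in WT against 23625 and 103951 in smDicer KO. Of 11 smooth muscle markers 10 were lower, with a median of -0.29, and their summed level was 120426 and 121392 in WT against 110836 and 81714 in smDicer KO. None of the smooth muscle markers was under 6 in WT. Of 14 fibroblast markers 8 were lower, with a median of -0.05 (0.06 after cyclic loess), 2 had a WT mean under 6, and the summed level was 13370 and 12645 in WT against 12270 and 9865 in smDicer KO. In bulk tissue, fewer cells of a type and less RNA per cell cannot be told apart.

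Prelp had the lowest difference of the members at -2.80, and it was followed by Aspn (-0.69), Ogn (-0.58), Lum (-0.41) and Bgn (-0.39). By unadjusted p under 0.05 in limma 3 of the 10 members (Prelp, Aspn and Bgn) were lower and 0 were higher, where 10.5% of all genes were lower and 7.2% higher. For 5 members (Prelp, Lum, Bgn, Ogn and Aspn) both smDicer KO arrays lay below both WT arrays, which 30.2% of all genes did, and for 0 members they lay above, which 21.5% did. These members are all among the 7 with a mean of at least 6 in the higher group. Of the 11245 genes over that limit, a larger share than of all genes, 1800, were lower at that p, and 1186 were higher. Both smDicer KO arrays lay below both WT arrays for 4143 of the 11245 and above them for 2840. Of the 22 probe sets 7 were lower at that p and 0 higher, against 9.39% and 6.41% of all probe sets. The 7 belong to Prelp, Bgn, Ogn and Aspn alone, and probe sets of the same gene read the same RNA and are no replicates. The median difference over the 10 members was -0.34, beside -0.04 over all genes. Relative to the WT mean, the members' median was -0.29 on the first smDicer KO array and -0.48 on the second. Without the second smDicer KO array, which held the most epithelial signal, the Prelp difference was -2.86 and the median over the members -0.29. Without the second WT array these were -2.67 and -0.32.

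**Figure D1:**
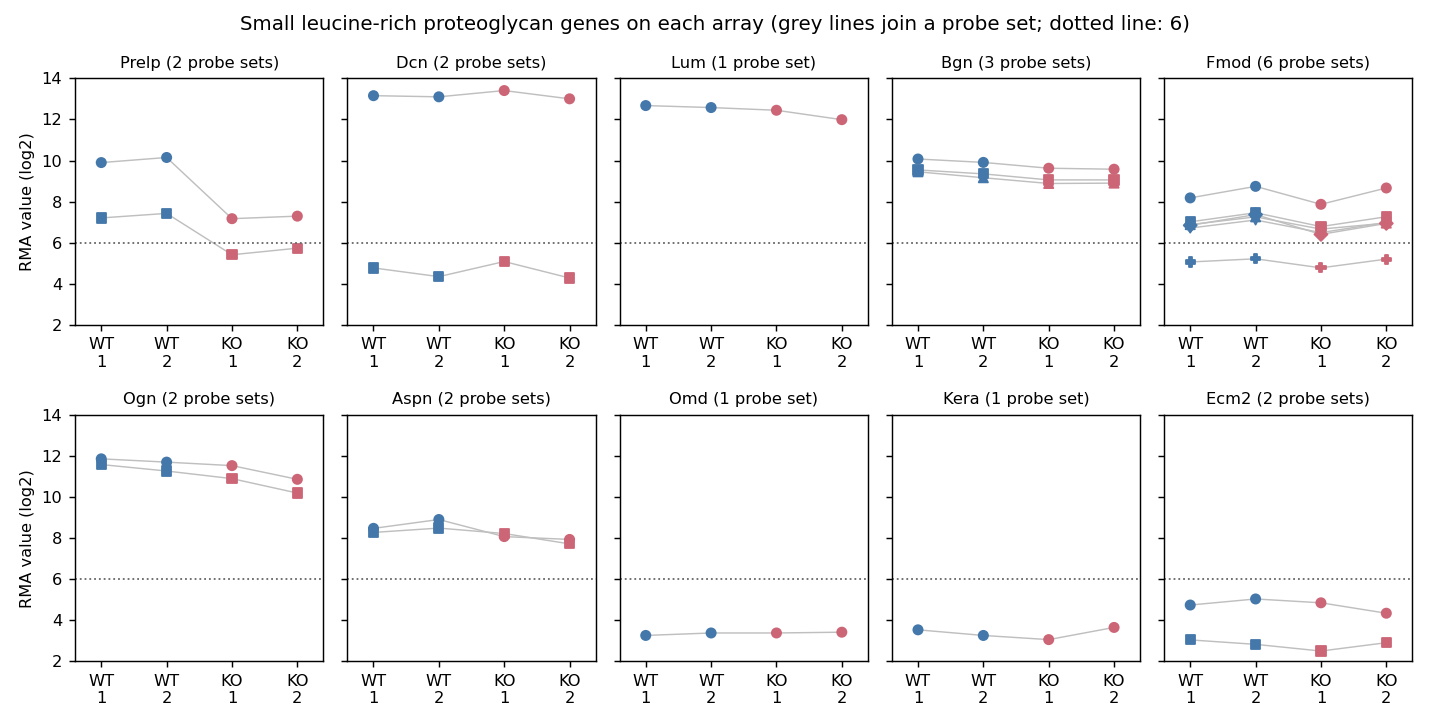
RMA log2 values (y axis) of the 22 probe sets of the 10 genes on the 4 arrays (x axis), with WT in blue and smDicer KO in red, and lines joining the values of 1 probe set. Both probe sets of Prelp drop between WT and smDicer KO, both of Ogn lie lower in smDicer KO, the upper one of Dcn stays near 13, and Omd, Kera and Ecm2 lie under 6 (dotted line) on every array.

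Prelp encodes a proline- and arginine-rich protein of the second family class, which binds collagen and heparan sulfate. Its brighter probe set read 9.90 and 10.15 in WT and 7.17 and 7.29 in smDicer KO. This probe set is of the _s_at type, whose probes can match several transcripts. The groups were far apart and the arrays within each group close together. The difference was -2.80 ± 0.15 (SE, 95% interval -3.19 to -2.40), a 6.94-fold lower level, with an unadjusted p = 1.97e-05 and an adjusted p = 0.178 in limma. It was the 9th lowest difference of all 20461 genes. The second probe set read 7.20 and 7.42 in WT and 5.41 and 5.73 in smDicer KO (-1.74 ± 0.18, adjusted p = 0.215 in limma). Its smDicer KO mean of 5.57 was near background, so this size is only a lower limit. The interval of the brighter Prelp probe set overlapped that of no other member. Across the 11 alternative treatments of the data the Prelp difference ran from -2.92 to -2.27.

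The genes whose pattern over the 4 arrays was most like that of Prelp, by the Euclidean distance between centred log2 values among 11244 other genes over 6, were Thbs4, Pcp4 and Klhl30. Thbs4, a thrombospondin of the extracellular matrix, read 9.35 and 9.52 in WT and 6.46 and 6.44 in smDicer KO (distance 0.218, difference -2.98 ± 0.13). Pcp4, which encodes a small calmodulin-binding protein, read 13.14 and 13.19 in WT and 10.47 and 10.32 in smDicer KO (distance 0.237, difference -2.77 ± 0.13). Klhl30, a kelch-like gene, read 7.79 and 7.81 in WT and 4.66 and 5.18 in smDicer KO (distance 0.325), where the level was near background. With 2 arrays a group these likenesses rest on the step between the genotypes.

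The promoters of the 3 members with an unadjusted p under 0.05 in limma and of Optc, the gene next to Prelp, which had one too, are shown. Each runs 5′ to 3′ over 300 bases of GRCm38.p6 (RefSeq), from 250 bases before the annotated start to 50 after it, and the capitals mark motif matches. They lie at chr1:133921352-133921651 on the minus strand for Prelp, chr13:49544193-49544492 on the plus strand for Aspn, chrX:73483351-73483650 on the plus strand for Bgn and chr1:133907950-133908249 on the minus strand for Optc. RefSeq promoters were matched for 8 of the 10 members, and Dcn and Lum had no entry.
Prelp: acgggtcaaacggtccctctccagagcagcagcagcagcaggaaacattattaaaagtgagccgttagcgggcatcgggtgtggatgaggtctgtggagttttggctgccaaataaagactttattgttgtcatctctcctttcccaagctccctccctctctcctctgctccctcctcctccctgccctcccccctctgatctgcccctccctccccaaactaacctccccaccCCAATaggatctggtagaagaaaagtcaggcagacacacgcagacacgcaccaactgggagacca
Aspn: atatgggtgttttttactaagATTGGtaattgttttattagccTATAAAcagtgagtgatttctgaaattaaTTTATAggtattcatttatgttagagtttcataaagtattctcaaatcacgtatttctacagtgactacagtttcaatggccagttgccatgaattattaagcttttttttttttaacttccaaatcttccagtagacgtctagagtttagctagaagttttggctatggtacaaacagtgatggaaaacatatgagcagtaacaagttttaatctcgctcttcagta
Bgn: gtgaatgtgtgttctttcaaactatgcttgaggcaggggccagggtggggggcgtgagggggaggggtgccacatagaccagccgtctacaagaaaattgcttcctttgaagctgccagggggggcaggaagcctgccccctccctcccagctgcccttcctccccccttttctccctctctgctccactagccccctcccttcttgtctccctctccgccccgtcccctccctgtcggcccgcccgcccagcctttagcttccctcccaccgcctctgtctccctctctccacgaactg
Optc: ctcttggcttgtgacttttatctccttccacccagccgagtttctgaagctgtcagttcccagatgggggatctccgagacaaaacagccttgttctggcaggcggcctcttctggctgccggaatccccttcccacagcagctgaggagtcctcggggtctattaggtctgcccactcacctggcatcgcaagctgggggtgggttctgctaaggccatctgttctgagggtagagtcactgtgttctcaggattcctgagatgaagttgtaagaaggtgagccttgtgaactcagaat

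Both strands were searched for the CArG box bound by serum response factor, for TATAAA, for CCAAT and for the AP-1 site TGANTCA. A CArG box can contain TATAAA. Of 32851 RefSeq promoters of the same length, 1.63% held a CArG box, 13.6% TATAAA, 37.4% CCAAT and 7.81% TGANTCA. The Prelp window held 1 match, CCAAT at -15 from the annotated start, in a sequence of 55.3% G and C. The Aspn window held TATAAA on the plus strand at -207 and on the minus strand at -178, and CCAAT on the minus strand at -229, in a sequence of only 31.0% G and C. The windows of Bgn, with 63.7% G and C, and of Optc, with 54.3%, held none of the 4 motifs. Of the other matched members, Fmod held CCAAT at 34, Ogn held TATAAA at -227 and, on the minus strand and overlapping it, at -229, Kera held CCAAT at -74 and, on the minus strand, at -163 and -107, and Omd and Ecm2 held none. The windows of the 3 lower members thus shared none of the motifs, apart from CCAAT in Prelp and Aspn.

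Of the other class II members, Lum and Fmod were expressed. Lumican, the product of Lum, keeps collagen fibrils thin and evenly spaced. Lum read 12.68 and 12.58 in WT and 12.45 and 11.99 in smDicer KO. The difference of -0.41 ± 0.20 (95% interval -0.93 to 0.11, adjusted p = 0.393 in limma) left the groups just apart, and the second smDicer KO array was the lower. Without the first smDicer KO array the difference was -0.64, and without the second it was -0.18. Its most alike genes were Mettl11a, Mlh3 and Mrpl33, at distances of 0.0195, 0.0212 and 0.0212. Lum varied less over the arrays than Prelp, so these smaller distances show no closer likeness than those of Prelp.

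Fibromodulin, the product of Fmod, binds collagen and takes part in fibril assembly and crosslinking. Its brightest probe set read 8.18 and 8.74 in WT and 7.87 and 8.66 in smDicer KO (-0.20 ± 0.35, 95% interval -1.12 to 0.72, adjusted p = 0.828 in limma). The groups overlapped, and the arrays of each group were farther apart than the group means. All 6 Fmod probe sets had a lower mean in smDicer KO, by -0.43 to -0.15, and none had an unadjusted p under 0.05 in limma, although 1 of them (difference -0.43) reached an unadjusted p = 0.0366 in limma with the replicate number as a block. On all 6 the second array of a group lay above the first, by 0.15 to 0.56 in WT and by 0.29 to 0.80 in smDicer KO. The pancreatic acinar markers split the arrays the same way, with 11 genes at a median of -1.58 and 1.58 in WT and -1.76 and 4.88 in smDicer KO against the WT mean, and a summed level of 471 and 4802 in WT and 413 and 38271 in smDicer KO. Their part in the Fmod values was not tested. Most Fmod probe sets are of the _x_at type, whose probes can match other transcripts.

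Omd and Kera, which encode osteomodulin of bone and keratocan of the cornea, were near background. Omd read 3.27 and 3.39 in WT and 3.39 and 3.42 in smDicer KO. Kera read 3.54 and 3.26 in WT and 3.06 and 3.66 in smDicer KO. Neither gene had a level over background in either group, so no change in them could be read.

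Of the class I members, Dcn did not follow Prelp, while Bgn and Aspn were slightly lower in smDicer KO. Decorin, the product of Dcn, carries 1 chain of chondroitin or dermatan sulfate and binds collagen fibrils and TGF-beta. Dcn read 13.16 and 13.10 in WT and 13.41 and 13.01 in smDicer KO, so that the smDicer KO arrays lay on both sides of the WT arrays. The difference was 0.08 ± 0.18 (adjusted p = 0.879 in limma), with an unadjusted 95% interval of -0.40 to 0.55. A lower or higher level within that interval could not be told from no difference. The other Dcn probe set lay under 6 on every array, between 4.28 and 5.08. The genes most like Dcn over the arrays, at distances of 0.0292 to 0.0328, were 9530082P21Rik, Heatr3 and Fyn. Dcn varied little over the arrays, so these small distances show no closer likeness than those of Prelp.

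Biglycan, the product of Bgn, is the closest relative of decorin and a ligand of Toll-like receptors. Bgn read 10.07 and 9.91 in WT and 9.62 and 9.58 in smDicer KO, without overlap. The difference was -0.39 ± 0.13 (95% interval -0.74 to -0.04, unadjusted p = 0.035 and adjusted p = 0.289 in limma). The other 2 probe sets gave -0.39 and -0.42 and also had unadjusted p values under 0.05. The 3 probe sets read the same RNA and are no replicates. After cyclic loess the Bgn difference was -0.26 (unadjusted p = 0.107 in limma). With 1 of the 4 arrays left out it ran from -0.47 to -0.31, in fits too small for their p to judge a gene.

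Asporin, the product of Aspn, lacks the glycosaminoglycan chain of its relatives and binds collagen and TGF-beta. Aspn read 8.48 and 8.91 in WT and 8.08 and 7.94 in smDicer KO, without overlap. The difference was -0.69 ± 0.19 (95% interval -1.19 to -0.18, unadjusted p = 0.019 and adjusted p = 0.255 in limma). The second probe set read 8.28 and 8.50 in WT and 8.23 and 7.73 in smDicer KO, and its difference of -0.41 ± 0.22 had an unadjusted p = 0.123 in limma. The first smDicer KO array lay just below the first WT array there. With 1 array left out the Aspn difference ran from -0.90 to -0.47.

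Among the members read here, Ogn is of class III and encodes osteoglycin, also named mimecan. Ogn read 11.87 and 11.71 in WT and 11.54 and 10.87 in smDicer KO (-0.58 ± 0.26, 95% interval -1.27 to 0.10, adjusted p = 0.363 in limma). Its other probe set read 11.59 and 11.28 in WT and 10.91 and 10.20 in smDicer KO (-0.88 ± 0.28, unadjusted p = 0.0306 and adjusted p = 0.277 in limma). On both probe sets the groups did not overlap and the second smDicer KO array was the lowest. That array held the lowest summed level of fibroblast and of smooth muscle markers as well, and their part in the Ogn values was not tested. Without the first smDicer KO array the difference of the first probe set was -0.92, and without the second array it was -0.25.

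Ecm2, a matrix protein with leucine-rich repeats related to those of decorin, was near background. Its brighter probe set read 4.75 and 5.04 in WT and 4.86 and 4.35 in smDicer KO, and the other lay between 2.51 and 3.05. With Omd and Kera it makes up the 3 members whose means were under 6 in both groups, which leaves 7 members over it.

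**Figure D2:**
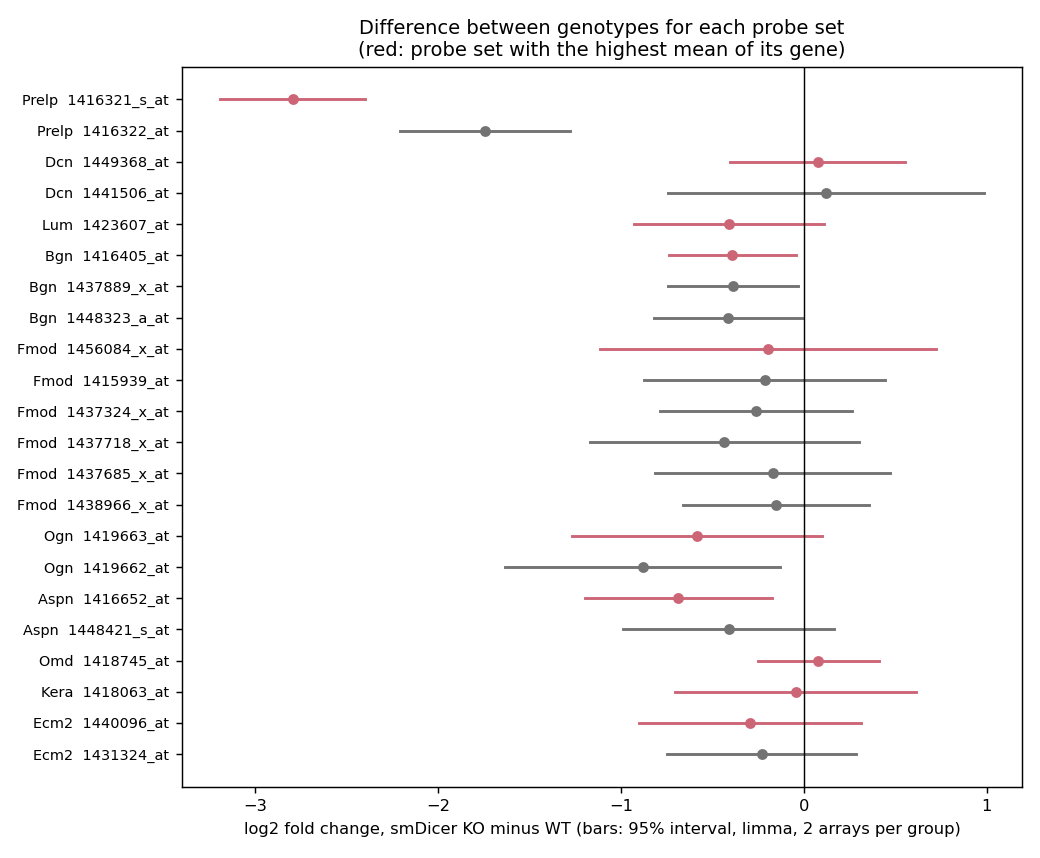
Difference of smDicer KO minus WT on the log2 scale (x axis) for each of the 22 probe sets (y axis), as points with 95% intervals from limma, in red for the probe set that stands for its gene. The 2 Prelp intervals lie lowest, from -3.19 to -2.40 and from -2.21 to -1.28, and the intervals of the Dcn, Lum, Fmod, Omd, Kera and Ecm2 probe sets all reach across 0.

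Most members lie in gene clusters, and differences between the members of a cluster were not tested. In the RefSeq gene order, Optc, Prelp and Fmod follow one another on chromosome 1. Optc, which encodes opticin, a related proteoglycan first known from the eye, read 9.65 and 9.64 in WT and 9.03 and 8.14 in smDicer KO (-1.06 ± 0.32, unadjusted p = 0.0245 and adjusted p = 0.265 in limma). Fmod on the other side of Prelp differed by only -0.20. The next genes outward, Atp2b4 and Btg2, had differences of 0.30 ± 0.35 and 0.30 ± 0.39. Without the first and the second WT array the Optc difference was -1.06 and -1.07. Without the first and the second smDicer KO array it was -1.51 and -0.62.

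On chromosome 10, Dcn, Lum, Kera and Epyc are neighbours, with differences of 0.08, -0.41, -0.04 and 0.08, and Kera and Epyc were near background. On chromosome 13, Ecm2, Aspn, Omd and Ogn lie between Cenpp and Nol8. There Aspn and Ogn were lower by -0.69 and -0.58, and Omd at 0.08 lay between them near background. Of the flanking genes, Cenpp differed by -0.76 ± 0.42, near background, and Nol8 by -0.37 ± 0.23. Bgn stands apart from its relatives on the X chromosome, and Atp2b3 next to it was near background.

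**Figure D3:**
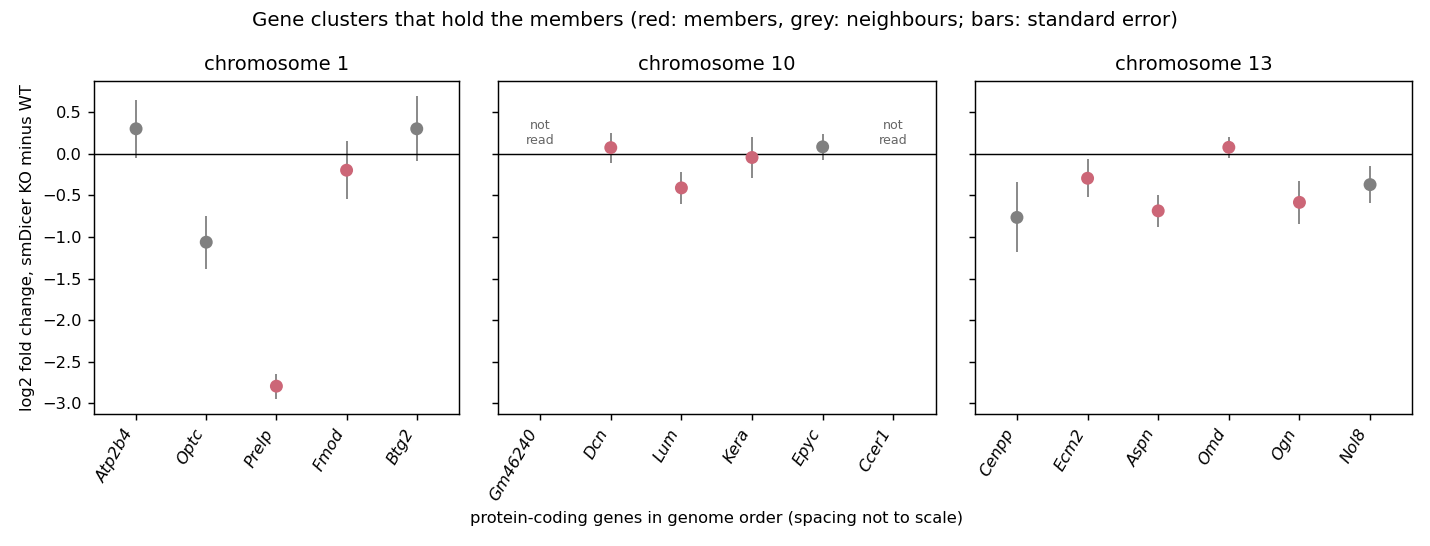
Difference of smDicer KO minus WT on the log2 scale (y axis, bars are standard errors from limma over 2 arrays a group) for protein-coding genes in RefSeq order (x axis, spacing not to scale), with members in red and neighbours in grey. Prelp at -2.80 and Optc at -1.06 stand lowest on chromosome 1, Fmod beside them is at -0.20, and Aspn and Ogn at -0.69 and -0.58 flank Omd on chromosome 13.

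Among 6 other leucine-rich repeat proteoglycans measured, 2 were lower and 4 higher, and the median was 0.16. Optc alone had an unadjusted p under 0.05 in limma. The WT mean of 4 of the 6 was under 6, so this tally and median rest partly on values near background. Podn read 0.23 ± 0.15 and Tsku 0.47 ± 0.35. Of 14 fibril collagens 8 were lower and 6 higher, 0 had an unadjusted p under 0.05 in limma, and the median was -0.05 (0.04 after cyclic loess). That tally rested on single arrays, since 13 of the 14 were lower without the first smDicer KO array (median -0.20) and 4 without the second (median 0.12). Col3a1 differed by 0.05 ± 0.13, Col1a2 by -0.25 ± 0.13, Col5a2 by -0.29 ± 0.20 and Col5a3 by -0.28 ± 0.25. Of 20 genes of collagen processing and crosslinking, 1 lower and 1 higher had an unadjusted p under 0.05, and the median was -0.06 (0.03 after cyclic loess). The higher one was Lox, lysyl oxidase, which crosslinks collagen, at 0.69 ± 0.22 (adjusted p = 0.281 in limma). Pcolce, an enhancer of procollagen cleavage, differed by -0.11 ± 0.13, and Serpinh1, the collagen chaperone, by -0.53 ± 0.26.

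The enzymes that build the chondroitin and dermatan sulfate chains of decorin and biglycan held 16 measured genes, of which 3 were lower and 1 higher at an unadjusted p under 0.05 in limma. Their median was -0.10. Dse, the epimerase that turns chondroitin into dermatan sulfate, read 6.40 and 6.19 in WT and 5.70 and 5.26 in smDicer KO (-0.82 ± 0.20, adjusted p = 0.241 in limma), with the smDicer KO mean near background. Chst14, the sulfotransferase that acts with it, read 7.78 and 7.95 in WT and 7.36 and 7.01 in smDicer KO (-0.68 ± 0.18, adjusted p = 0.246). Csgalnact2, which starts the chain, read 8.59 and 8.51 in WT and 8.10 and 7.80 in smDicer KO (-0.60 ± 0.16, adjusted p = 0.247). For these 3 genes both smDicer KO arrays lay below both WT arrays. Without the first and the second WT array Dse differed by -0.72 and -0.92, Chst14 by -0.77 and -0.59 and Csgalnact2 by -0.56 and -0.64. Chst12 differed by -0.62 ± 0.32. Of 8 keratan sulfate genes 1 was lower and 1 higher at that p, with a median of 0.06. B4galt1, a galactosyltransferase, differed by 0.43 ± 0.15, Chst4 by 0.21 ± 0.18 and B3gnt2 by -0.19 ± 0.21.

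Of 10 TGF-beta ligands, receptors and latent binding proteins, 1 was lower and 0 higher at an unadjusted p under 0.05 in limma, with a median of 0.08. The lower one was Ltbp2, a latent TGF-beta binding protein of microfibrils, which read 7.93 and 9.11 in WT and 7.22 and 6.40 in smDicer KO (-1.71 ± 0.50, adjusted p = 0.258 in limma). Its WT arrays were far apart. Without the second of them the difference was -1.12, and without the second smDicer KO array it was -1.30. Tgfbr1 differed by 0.50 ± 0.20, Tgfbr2 by 0.06 ± 0.19 and Ltbp3 by 0.11 ± 0.19. Of 9 other receptors bound by the family 1 was lower and 1 higher at that p, with a median of 0.15. Kdr, a receptor of vascular endothelial growth factor, differed by 0.53 ± 0.13, Itgb1, an integrin chain, by -0.57 ± 0.26 and Igf1r by 0.21 ± 0.25.

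Of 21 other proteoglycans 2 were lower and 4 higher at an unadjusted p under 0.05 in limma, with a median of -0.07 (0.06 after cyclic loess). Cspg4, a membrane proteoglycan of pericytes and smooth muscle, read 8.47 and 8.71 in WT and 7.99 and 7.22 in smDicer KO (-0.98 ± 0.29). Agrn, which encodes agrin of basement membranes, read 8.50 and 8.75 in WT and 9.69 and 9.33 in smDicer KO (0.88 ± 0.19, adjusted p = 0.234 in limma). Sdc4 differed by -0.10 ± 0.14 and Hspg2, which encodes perlecan, by -0.07 ± 0.27. The proteoglycans of other families thus held genes on both sides of 0. Apart from Chst11, the related genes named here with an unadjusted p under 0.05 in limma were Optc, Lox, Dse, Chst14, Csgalnact2, B4galt1, Ltbp2, Kdr, Cspg4 and Agrn. Each kept its direction with any 1 of the 4 arrays left out, although each lost that p in at least 1 such fit. These fits hold 1 array in a group, and without a WT array fewer of all probe sets reached that p. Such a loss is therefore no trait of these genes. The size of several differences rested on 1 smDicer KO array. Without the first of these arrays and without the second, respectively, Itgb1 differed by -0.92 and -0.23, Chst12 by -1.07 and -0.18, Serpinh1 by -0.84 and -0.23, Cspg4 by -1.37 and -0.60, and Tgfbr1 by 0.25 and 0.74. In the same order, Col5a2 differed by -0.52 and -0.058, Tsku by 0.96 and -0.022, and Igf1r by -0.13 and 0.54.

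**Figure D4:**
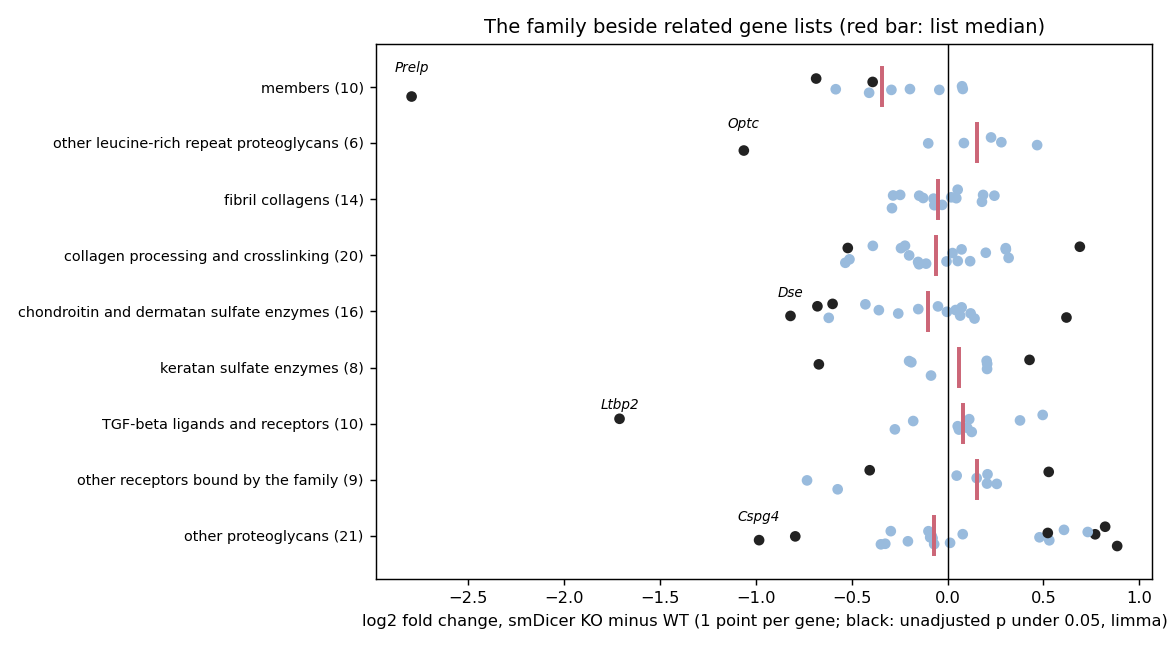
Difference of smDicer KO minus WT on the log2 scale (x axis) of each gene of the family and of 8 related lists (y axis, number of genes in brackets), 1 point per gene, black at an unadjusted p under 0.05 in limma, with a red bar at the list median. Prelp at -2.80 lies lowest of all genes shown, followed by Ltbp2 at -1.71 and Optc at -1.06, and the family's median of -0.34 lies lower than the median of each other list.

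The family was set beside markers of the cells the tissue could hold. Among the fibroblast markers, 2 were lower and 1 higher at an unadjusted p under 0.05 in limma. The higher one, Dpep1, a membrane dipeptidase, had the largest difference of that list and read 6.61 and 6.22 in WT and 8.49 and 10.44 in smDicer KO (3.05 ± 0.67, adjusted p = 0.234 in limma). Like the epithelial markers, it was highest on the second smDicer KO array, and their part in its values was not tested. Dpt, dermatopontin, a matrix protein that binds decorin, read 11.71 and 11.65 in WT and 11.19 and 10.43 in smDicer KO (-0.87 ± 0.28, adjusted p = 0.277 in limma). Its difference was -0.83 and -0.90 without the first and the second WT array. It was -1.25 and -0.49 without the first and the second smDicer KO array. The median of 7 mesothelial markers was 0.26, of 10 macrophage markers 0.41, of 4 markers of interstitial cells of Cajal 0.22, of 6 enteric glia markers 0.06, of 8 endothelial markers -0.06 (0.01 after cyclic loess) and of 6 adipocyte markers 0.09. Relative to the WT mean, the smooth muscle median was -0.16 and -0.52 on the smDicer KO arrays, the fibroblast median 0.17 and -0.16, and the median of the family -0.29 and -0.48. The part of these cell markers in the members' differences was not tested. Prelp at -2.80 was lower than the lowest smooth muscle marker at -0.91 and the lowest fibroblast marker at -0.87.

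**Figure D5:**
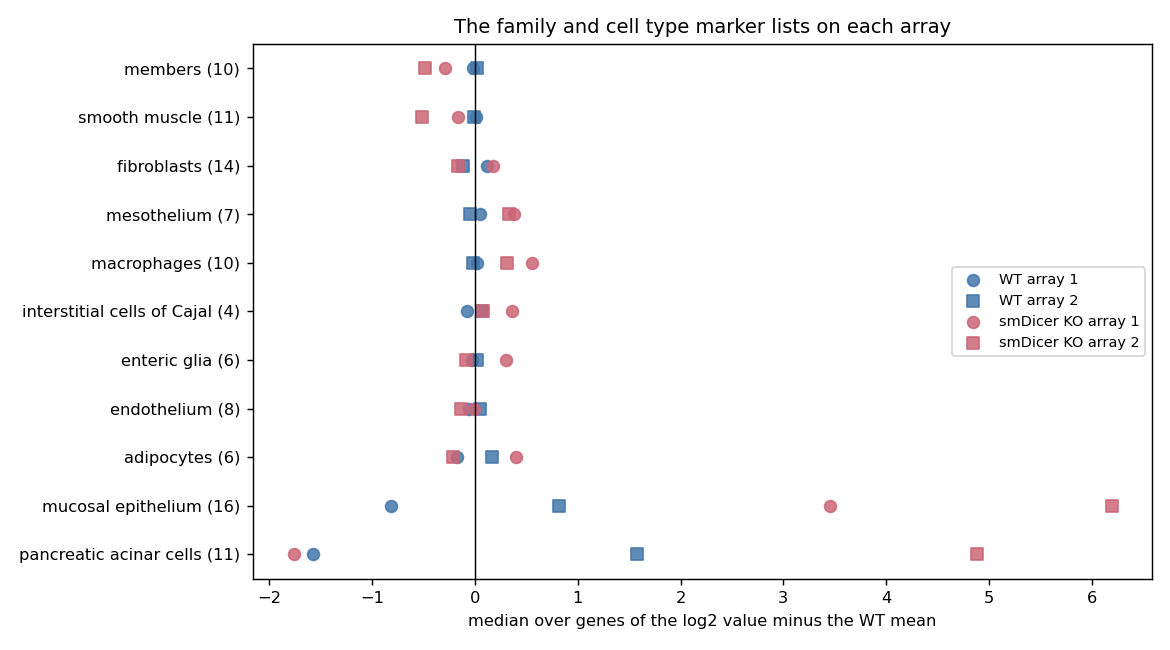
Median over the genes of each list (y axis, number of genes in brackets) of its log2 value on each array after subtraction of the WT mean (x axis), with WT in blue and smDicer KO in red, and circles for array 1 and squares for array 2 of a group. With 2 WT arrays their points mirror each other around 0, the family lies at -0.29 and -0.48 in smDicer KO, the epithelial list at 3.45 and 6.19, and the acinar list is split between the arrays of each group.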

How the data were processed

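The authors used RMA, run by a service provider in Omicsoft Array Studio (version not given in the sources used here), and deposited log2 values, which were taken without change. The authors also deposited a fold change and an unadjusted p-value per probe set, which were not read. Differences were fitted in R 4.3.3 by lmFit and eBayes of limma 3.58.1 (prior degrees of freedom 2.49, prior variance 0.0249), adjusted by Benjamini-Hochberg over 45101 probe sets. Tables used Python 3.11.15 with numpy 2.4.6, scipy 1.17.1 and pandas 2.3.3. The script was tested on simulated data.

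Of the probe sets, 36804 with 1 symbol gave 20461 genes, each represented by the probe set of highest mean, while 2005 with several symbols, 6228 with none and 64 controls were not used for genes. The members and the gene lists were chosen with earlier results of these data known. Named genes were all members, Dicer1, the 2 brightest and the 2 most different genes of each related list (over 6 on the log2 scale for the latter) and the 3 genes most like Prelp, Dcn and Lum. Atp2b4, Btg2, Nol8, Epyc and the other neighbours were named by position, and cell marker genes other than Dpt and Dpep1 are given only as lists. Chst11 was named after its values were seen. Replicates come from separate mice. Arrays give no counts, so their number limits the precision. Alternatives were leaving out each array, the mean over a gene's probe sets, a block for the replicate number, cyclic loess, arrays centred on their medians, a filter (values of at least 6 on 2 or more arrays), eBayes with trend and robust settings, and a linear model without moderation. For genes that are no members, and for list medians, they were chosen after seeing the data. No protein sequences were used here.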

Additional observations from a re-analysis of the deposited data

How the results depend on the processing

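The Prelp difference kept its direction and an unadjusted p under 0.05 in limma under all 11 alternatives, at adjusted p values of 0.051 to 0.781. The 7126 probe sets at an unadjusted p under 0.05 became 4535 with the unmoderated model, 4377 after the filter on low values and 2249 to 9801 with 1 array left out. The 7 member probe sets became 3 with the unmoderated model, 4 after cyclic loess and 2 to 6 with 1 array left out, and the 3 member genes became 1 to 3. The members' median of -0.34 ran from -0.48 to -0.29 with 1 array left out.

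Differences near 0 changed sign with 1 array left out, where Dcn ran from -0.13 to 0.28, Fmod from -0.59 to 0.20 and Kera from -0.34 to 0.25. Outside the family, Col3a1 ran from -0.022 to 0.11, Ltbp3 from -0.041 to 0.27, Igf1r from -0.13 to 0.54, Tgfbr2 from -0.17 to 0.29, Tsku from -0.022 to 0.96, B3gnt2 from -0.42 to 0.045, Sdc4 from -0.20 to 0.0035 and Hspg2 from -0.40 to 0.26. Hspg2 (0.058), Pcolce (0.018) and Sdc4 (0.029) also turned after cyclic loess, and Col5a2 (0.32) and Tgfbr2 (-0.067) with the mean over probe sets; the cause was not tested. Lum in the absence of smDicer KO replicate 1 had an unadjusted p = 0.0143 in limma.

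Arrays of the same number deviated together (r = 0.251 over 45101 probe sets and 0.383 over the 17932 with a mean of at least 6, which are not independent of one another), and nothing states what a number shares. With the replicate number as a block in limma, 6683 probe sets were under an unadjusted p of 0.05. The member genes stayed at 3 in that blocked fit, with Ogn (unadjusted p = 0.0463 in limma) in the place of Bgn (unadjusted p = 0.0525 in limma), and it moved no other member gene across 0.05, while 1 further Fmod probe set came under it (unadjusted p = 0.0366 in limma). The fit that drops smDicer KO replicate 1 takes the lone array to vary like the WT arrays, and 378 probe sets were called in it after adjustment.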
